A study of Homo sapiens with 5 samples.

Results

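Cells labelled as recovering from 72 h of the acetyl-CoA carboxylase (ACC) inhibitor PF0517515 were compared with cells that had stayed untreated for 72 h. The comparison covered every barcode with 1000 or more detected genes and no more than 20% of UMIs (unique molecular identifiers) from mitochondrial DNA. These were 3537 recovery cells and 2920 untreated cells, 6457 of the 15095 cells that passed the same filter in all 5 libraries. The cells were MDA-MB-468, a widely used line from a human breast tumour of the triple-negative kind. Each condition was measured in 1 single-cell library. The other conditions were 72 h of inhibitor, 6 h of inhibitor and untreated cells at 0 h, and the first and the last of these are given beside the comparison where they bear on it. The labels give neither the dose nor the vehicle, nor how long recovery lasted or whether the medium was then free of the drug. No untreated library of the recovery library's own time was used, so drug history and time in culture cannot be told apart. Replicate libraries were not available on either side, and the comparison is therefore given without a test. Ranges in parentheses are exact 95% intervals of a ratio that cover counting error only.

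ACC makes malonyl-CoA, the building block of fatty acid synthesis and a brake on fatty acid entry into mitochondria. Cells sense a shortage of membrane lipids partly through the endoplasmic reticulum (ER). A disturbed ER membrane or a load of unfolded protein activates the sensors PERK, IRE1 and ATF6, which raise chaperones, ER-associated degradation and, through ATF4, the stress factor CHOP. Low ER cholesterol activates SREBP2, which drives the genes of cholesterol synthesis.

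The recovery library held 102172847 UMIs in kept cells, with a median of 26540 per cell, against 93898612 and 29232 in the 72 h untreated library. Cells of fewer than 10000 UMIs made up 6.84% of recovery cells and 2.12% of untreated cells. Epithelial markers were present in both libraries. EPCAM stood at 326 CPM (a gene's UMIs per 1e+06 UMIs of the kept cells) in recovery and 400.5 CPM in untreated cells, and KRT18 at 2912 and 2981 CPM. Some keratins differed more, KRT7 standing at 732 and 1215 CPM and KRT16 at 82.9 and 42.5 CPM, while KRT17 stood at 360 and 375 CPM. Of the receptors whose lack defines triple-negative tumours, PGR had 2 UMIs in recovery and 0 in untreated cells, ESR1 stood at 3.45 and 10.1 CPM, and ERBB2 at 14.05 and 20.04 CPM. None of 19 markers of fibroblasts, endothelium and blood cells reached 10 CPM in either library. Their sum was 17.4 CPM in recovery and 13.4 CPM in untreated cells, and 8 of them were at 0 in recovery against 10 in untreated cells. The 2 libraries shared 1 barcode.

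Across the transcriptome, 9395 genes reached 10 CPM in at least 1 of the 2 libraries. Of these 15.5% differed more than 2-fold, 4.51% (424 genes) being higher in recovery and 11.0% (1034 genes) lower. A smaller difference of more than 1.5-fold was found for 36.6%, 11.7% (1098 genes) being higher and 24.9% (2340 genes) lower. The median gene was at a log2 ratio of -0.17, and 38.7% of genes were above 0. The balance of higher and lower genes followed the scaling. Median-of-ratios scaling moved all genes up by 0.17 and gave 632 higher and 719 lower, and the trimmed mean of M values moved them up by 0.25 and gave 755 and 605. As a measure of how far libraries of untreated cells lay apart, 7.05% of genes differed more than 2-fold between the untreated libraries of 72 h and 0 h, 5.56% being higher at 72 h and 1.48% lower. Between 72 h of inhibitor and 72 h untreated 9.33% did, and between recovery and 0 h untreated 25.3%. More than 2-fold past both untreated libraries, 384 of 9601 genes were higher (4.0%) and 777 were lower (8.09%). Differences were more frequent among weakly expressed genes, at 24.6% of the 3057 genes with a mean below 20 CPM and 9.38% of the 2515 genes between 50 and 200 CPM. A gene below 10 CPM in 1 library was compared only because the other reached that minimum, so its direction was fixed by the minimum. That held for 134 of the 424 higher and 563 of the 1034 lower genes, while 7984 genes reached the minimum in both libraries, with 290 more than 2-fold higher and 471 lower. The same holds for every named gene that stood under 10 CPM in only 1 of these 2 libraries, CCN2 and LIF among the lower ones and INSIG1, HBEGF, SLC30A1, SERPINB3 and SERPINB4 among the higher ones.

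Genes of the ER stress response were higher in recovery than in untreated cells, and most of those named here were also higher than in cells still on the drug. HSPA5 (ENSG00000044574, GRCh38 chromosome 9, 125234853 to 125241330, minus strand) encodes BiP, the main chaperone of the ER and the protein that holds its stress sensors inactive. It stood at 838 CPM in recovery and 340 CPM after 72 h of inhibitor, against 130 CPM in 72 h and 74.8 CPM in 0 h untreated cells. Recovery was thus 6.47-fold (6.34 to 6.59) above the 72 h untreated library and was the highest of the 4 libraries. HERPUD1 (ENSG00000051108, chromosome 16, 56932048 to 56944863, plus strand), which helps assemble the machinery that removes misfolded proteins from the ER, stood at 785 CPM in recovery and 278 CPM after 72 h of inhibitor, against 103 and 41.3 CPM in 72 h and 0 h untreated cells. It was 7.62-fold (7.46 to 7.78) higher in recovery than at 72 h untreated.

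Of 22 ER chaperones and folding enzymes, all of which were compared, 18 were higher in recovery and 4 lower, with a median log2 ratio of 0.64 against -0.17 for all genes. More than 2-fold differences were 9, all higher, and all 9 also lay more than 2-fold above the 0 h untreated library. After HSPA5 came MANF, a secreted factor that also acts inside the ER, at 204 against 66.6 CPM (3.07-fold, 2.98 to 3.16). The BiP co-chaperones DNAJB9 and DNAJC3 were 2.55-fold (2.39 to 2.71) and 2.29-fold (2.22 to 2.36) higher. HSP90B1, the ER member of the HSP90 family, stood at 1007 against 502 CPM, 2.01-fold (1.99 to 2.03) higher. The prolyl isomerase PPIB stood at 308 against 340 CPM, and CNPY2 at 73.5 against 125 CPM, so the list did not move as a block.

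Of 20 genes of ER-associated degradation compared out of 21 listed, 15 were higher and 5 lower, with a median of 0.52. More than 1.5-fold differences were 9, all higher. Beside HERPUD1 they included SELENOK, an ER membrane selenoprotein, at 210 against 93.0 CPM, and SEL1L, the scaffold of the HRD1 ubiquitin ligase, at 26.6 against 14.5 CPM. The cytosolic motor of the pathway, VCP, stood at 313 against 274 CPM (1.14-fold). DERL3 was below the minimum, at 4.10 against 1.00 CPM.

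Promoter windows of 250 bases before to 50 bases after the RefSeq start (GRCh38.p14) were searched on both strands for the letters of elements known from this response. The ER stress response element (ERSE) was taken as CCAAT and CCACG with 9 bases between them, and ERSE-II as ATTGG and CCACG with 1 base between. ERSE letters were found in 6 of 21 matched ER chaperone windows (28.6%) and in 22 of 27305 promoters overall (0.0806%). ERSE-II letters were found in 2 of the 21 windows, HYOU1 and SDF2L1, in 1 of 17 windows of the degradation list, HERPUD1, and in 15 promoters overall. The C/EBP-ATF element, taken as TGATGNAA, was found in 4 of 20 windows of the ATF4-CHOP list and in 3.67% of all promoters. These counts come from listed genes and known elements without use of the expression values, so they are not a result of the 2 libraries. The windows of HSPA5, HERPUD1 and ATF3 are shown up to the start site, as 1 example for each of the 3 elements among genes more than 2-fold higher in recovery. Capitals mark the ERSE in HSPA5 (chr9:125241344-125241593, minus strand), the C/EBP-ATF letters on the reverse strand followed by the ERSE-II in HERPUD1 (chr16:56931892-56932141, plus strand), and the C/EBP-ATF letters in ATF3 (chr1:212565157-212565406, plus strand).
HSPA5: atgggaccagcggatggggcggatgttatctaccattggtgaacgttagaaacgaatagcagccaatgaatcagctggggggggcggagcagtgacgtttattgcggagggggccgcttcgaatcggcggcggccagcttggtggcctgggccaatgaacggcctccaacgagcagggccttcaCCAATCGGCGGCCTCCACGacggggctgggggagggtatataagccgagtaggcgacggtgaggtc
HERPUD1: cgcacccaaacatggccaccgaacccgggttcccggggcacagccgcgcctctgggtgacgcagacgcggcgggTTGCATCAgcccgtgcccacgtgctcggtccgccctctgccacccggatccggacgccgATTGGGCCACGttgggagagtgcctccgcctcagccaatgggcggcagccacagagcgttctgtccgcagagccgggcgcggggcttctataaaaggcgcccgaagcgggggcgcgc
ATF3: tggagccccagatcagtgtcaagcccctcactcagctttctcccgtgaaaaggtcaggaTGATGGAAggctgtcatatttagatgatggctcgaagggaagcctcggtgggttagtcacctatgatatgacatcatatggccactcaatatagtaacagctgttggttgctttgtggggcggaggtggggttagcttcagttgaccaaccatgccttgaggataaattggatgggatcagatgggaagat
The matches begin 66 bases before the start in HSPA5, 176 and 117 bases before it in HERPUD1 and 191 bases before it in ATF3. Chaperones with the ERSE letters were spread over the list's range of ratios. HSPA5 and HSP90B1 were at log2 ratios of 2.69 and 1.01, CALR at 0.72, ERO1B at 0.57, CANX at 0.01 and CRELD2 at -0.30.

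Of the 10 sensors and factors of the response, 8 were higher, 2 of them more than 2-fold. DDIT3 (ENSG00000175197, chromosome 12, 57516588 to 57521737, minus strand), which encodes CHOP, differed most of them and is also a member of the ATF4-CHOP list. It stood at 435 CPM in recovery and 213 CPM after 72 h of inhibitor, against 59.7 and 18.5 CPM in 72 h and 0 h untreated cells, 7.29-fold (7.09 to 7.50) above 72 h untreated. EIF2AK3, which encodes the sensor PERK, stood at 71.5 CPM in recovery and 25.7 CPM after 72 h of inhibitor, against 26.1 CPM at 72 h untreated. This sensor was thus near the untreated level on the drug and 2.74-fold higher in recovery. ERN1, the sensor IRE1, stood at 25 against 13.1 CPM and ATF6, the third sensor, at 62.2 against 48.2 CPM. Summed XBP1 UMIs, which do not separate spliced from unspliced RNA, stood at 196 against 189 CPM. ATF4, whose activity is set largely by translation, stood at 358 against 256 CPM (log2 ratio 0.49).

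Of 21 genes of the ATF4-CHOP response compared out of 24, 18 were higher and 3 lower, with a median of 0.49. Of the 8 that were more than 2-fold higher, all 8 were also more than 2-fold above the 0 h untreated library. As a list, these genes were also high on the drug. The 72 h inhibitor library over 72 h untreated had a median of 0.72 for the same 21 genes. Their sum was 3351 CPM in recovery and 3280 CPM after 72 h of inhibitor, against 1918 CPM at 72 h untreated. PPP1R15A, which encodes the phosphatase subunit GADD34 that reverses the PERK signal, stood at 110.1 CPM in recovery against 31.0 CPM in untreated cells (3.55-fold, 3.41 to 3.70). DDIT4, an inhibitor of mTORC1, stood at 643 against 200 CPM (3.22-fold, 3.17 to 3.27). CREBRF, KLHL24, SESN2, VEGFA and ATF3 were the others, ATF3 at 91.1 against 45.5 CPM. GDF15, a secreted stress hormone, went the other way, at 4.15 CPM in recovery against 10.1 CPM in untreated cells, whereas it stood at 69.8 CPM in the 72 h inhibitor library. TRIB3, a target of CHOP, stood at 149 against 124 CPM and NUPR1, a stress protein, at 431 against 357 CPM. In the amino acid branch of the same response the 12 compared of 14 genes of serine, one-carbon and asparagine synthesis had a median of 0.33, and only ALDH18A1 was more than 2-fold higher, at 45.9 against 19.3 CPM.

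BBC3 (ENSG00000105327, chromosome 19, 47220822 to 47232766, minus strand), which encodes the death-promoting protein PUMA, stood at 62.5 CPM in recovery and 23.9 CPM after 72 h of inhibitor, against 7.12 and 3.16 CPM in 72 h and 0 h untreated cells. It was 8.78-fold (8.10 to 9.52) above 72 h untreated, but reached the minimum only in recovery. BAK1, a pore-forming member of the same family, was 3.12-fold (2.94 to 3.31) higher at 45.7 against 14.6 CPM. Of 14 genes of the BCL2 family and death receptors compared out of 21, 6 were higher and 8 lower. Their median of -0.13 was close to the -0.17 of all genes. The other 12 genes of this list that were compared stayed within 2-fold, and BCL2L1, which encodes the survival protein BCL-XL, stood at 27.0 against 45.8 CPM. Of 18 CDK inhibitors, cyclins and p53 targets compared out of 20, 12 were higher and 6 lower, 6 of them more than 2-fold higher and 2 more than 2-fold lower. GADD45G, which reached the minimum only in recovery, had the highest ratio of all named genes at 119 CPM in recovery against 8.68 CPM in untreated cells (13.7-fold, 12.7 to 14.7), while it stood at 310 CPM in the 72 h inhibitor library. The inhibitors of cyclin-dependent kinases CDKN1C and CDKN1A stood at 47.2 against 13.4 CPM and at 40.9 against 12.7 CPM. CDKN1A was at 5.31 CPM in the 72 h inhibitor library, so the recovery library alone lay above the others. MYC stood at 38.6 CPM in recovery and 161 CPM after 72 h of inhibitor, against 85.8 CPM at 72 h untreated.

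**Figure D1:**
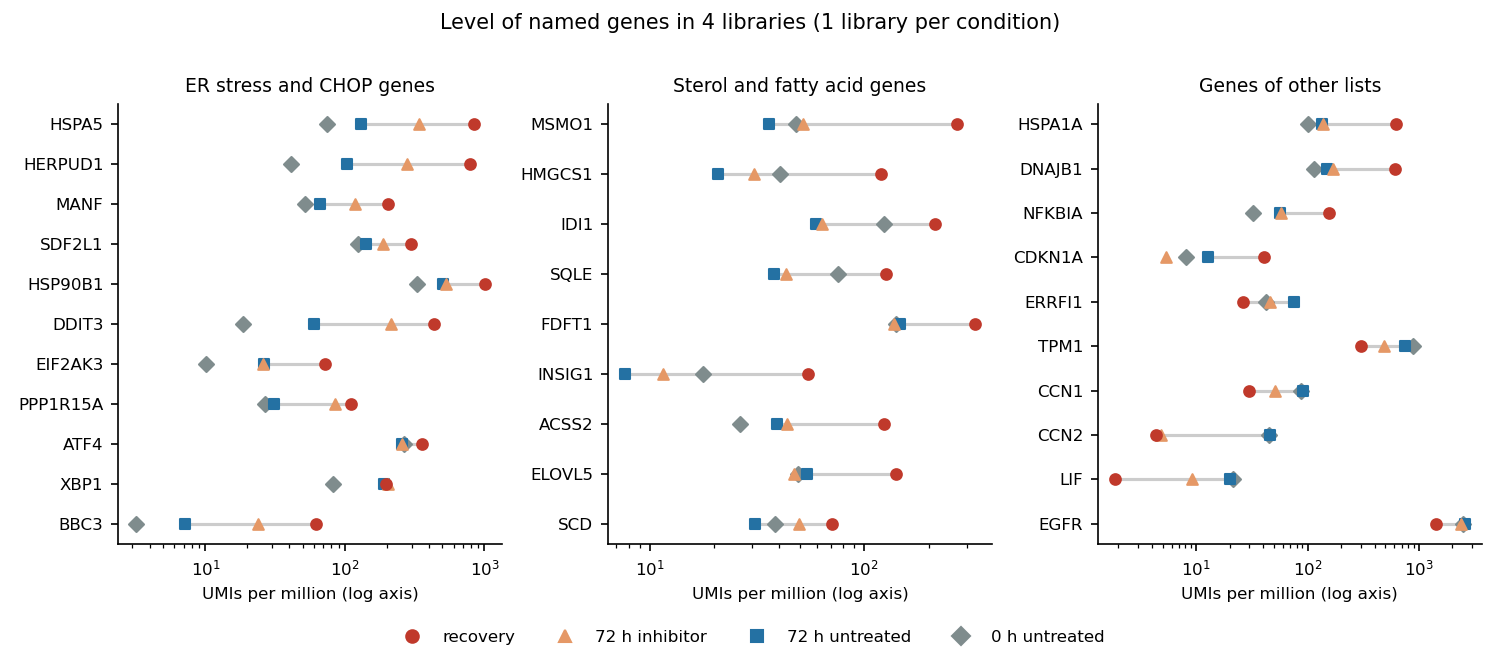
CPM (log axis) of 30 named genes in recovery, 72 h inhibitor, 72 h untreated and 0 h untreated libraries, 1 point per library, with grey lines joining recovery to 72 h untreated. HSPA5 at 838 against 130 CPM and MSMO1 at 270 against 36.0 CPM lie far to the right in recovery, while CCN2 at 4.36 against 46.1 CPM lies far to the left.

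Genes of cholesterol synthesis were higher in recovery. MSMO1 (ENSG00000052802, chromosome 4, 165327623 to 165343160, plus strand), a sterol demethylase, stood at 270 CPM in recovery and 52.1 CPM after 72 h of inhibitor, against 36.0 and 48.2 CPM in 72 h and 0 h untreated cells, 7.48-fold (7.22 to 7.76) above 72 h untreated. HMGCS1 (ENSG00000112972, chromosome 5, 43289395 to 43313512, minus strand), which makes HMG-CoA, stood at 120.1 against 20.7 CPM (5.80-fold, 5.53 to 6.09). For both enzymes the 72 h inhibitor library lay nearer to the untreated libraries than to recovery.

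Of 19 enzymes compared out of 20, 16 were higher and 3 lower, with a median of 0.85, and 7 were more than 2-fold higher. Among the others were IDI1, SQLE, MVD and FDFT1. The 72 h untreated library was below the 0 h one for several of them, SQLE standing at 37.9 CPM at 72 h and 75.4 CPM at 0 h, and the median against 0 h untreated was 0.43, with 4 enzymes more than 2-fold above both. PMVK stood at 30.7 against 52.2 CPM and TM7SF2 at 6.74 against 13.9 CPM, both lower in recovery. The genes of sterol regulation, uptake and efflux did not move together. Of 16 compared out of 19, 8 were higher and 8 lower, with a median of 0.08. Past 2-fold were 1 higher, INSIG1, and 1 lower, MBTPS2 at a log2 ratio of -1.16, which reached the minimum only in untreated cells. INSIG1 (chromosome 7, 155297776 to 155310235, plus strand), which retains the sterol sensor in the ER and is itself an SREBP target, stood at 54.5 CPM in recovery and 11.6 CPM after 72 h of inhibitor, against 7.70 CPM at 72 h untreated (7.07-fold, 6.55 to 7.65). SREBF2, which encodes SREBP2 itself, stood at 112 against 78.4 CPM. The letters TCACNCCAC of a sterol regulatory element were found in 0 of 15 windows of the enzymes and in 1.15% of all promoters.

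Fatty acid synthesis genes were mixed. Of 19 compared out of 24, 11 were higher and 8 lower, with a median of 0.13. ACSS2, which makes acetyl-CoA from acetate, stood at 124 against 39.2 CPM (3.17-fold, 3.06 to 3.29). The elongase ELOVL5 stood at 140.4 against 54.1 CPM and the desaturase SCD at 70.6 against 31.0 CPM. FASN, the synthase that uses malonyl-CoA, stood at 102 CPM in recovery and 39.3 CPM after 72 h of inhibitor, against 78.1 CPM at 72 h untreated. Of the drug's own targets, the enzyme gene ACACA (ENSG00000278540, chromosome 17, 37084988 to 37406818, minus strand) stood at 33.0 CPM in recovery and 32.9 CPM after 72 h of inhibitor, against 57.7 CPM at 72 h untreated, 1.75-fold (1.68 to 1.83) lower in recovery. ACACB stood at 3.78 against 3.50 CPM, below the minimum. MLYCD, which breaks malonyl-CoA down, was 3.32-fold (2.96 to 3.74) lower at 3.78 against 12.5 CPM.

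Genes of fatty acid oxidation were lower by small ratios, 13 of 15 compared with a median of -0.25, which became 0.002 with the trimmed mean of M values. CPT2, the inner carnitine transferase, was the only one past 2-fold, at 5.47 against 16.6 CPM. PDK4 and ANGPTL4, targets of the fatty acid sensors of the PPAR family, were below the minimum in this comparison, at 3.31 against 2.30 CPM and 2.53 against 1.43 CPM. Both were above it in the 72 h inhibitor library, at 21.6 and 18.6 CPM. PLIN2, a coat protein of lipid droplets, showed the same order, with 42.6 CPM in recovery and 121 CPM after 72 h of inhibitor, against 38.6 CPM at 72 h untreated. MFSD2A, a transporter of lysophospholipids, stood at 37.4 against 3.73 CPM (10.0-fold, 9.0 to 11.2), a gene that reached the minimum only in recovery.

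**Figure D2:**
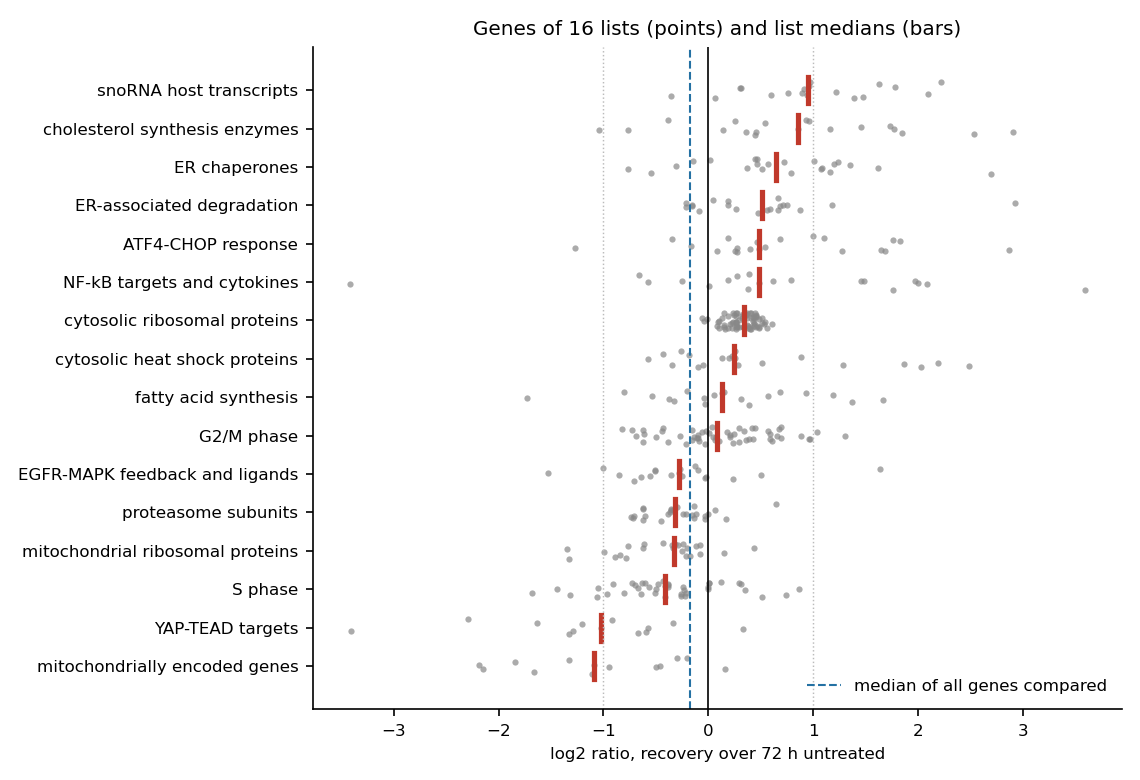
Log2 ratio of recovery over 72 h untreated for the compared genes of 16 lists (grey points, spread vertically at random) with list medians (red bars), the median of all genes at -0.17 (dashed line) and the 2-fold limits (dotted lines). Cholesterol enzymes at a median of 0.85 and ER chaperones at 0.64 lie to the right, YAP-TEAD targets at -1.03 and mitochondrially encoded genes at -1.09 to the left.

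The stress genes differed across most of the recovery cells. To compare cells at 1 depth, 5000 UMIs were drawn at random from every cell that held as many, which left 3462 recovery and 2885 untreated cells. At that depth 91.3% (90.3 to 92.2) of recovery cells held an HSPA5 UMI, against 45.2% (43.4 to 47.1) of untreated cells, and without thinning 98.2% against 92.4%. DDIT3 was seen in 79.5% (78.1 to 80.8) of thinned recovery cells against 23.5% (22.0 to 25.1) of untreated cells, and without thinning in 95.8% against 69.1%. These intervals are exact binomial. All cells here are of 1 line, so no cell type that should lack these genes was present to measure the share that free RNA gives.

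Summed over the ER chaperone list, 61.8% of thinned recovery cells lay above the 90th percentile of untreated cells, which was 21 UMIs. The medians were 24 UMIs in recovery and 14 in untreated cells, and the 10th percentile of recovery cells, at 15, was above the untreated median. The matching share was 17.7% in the 72 h inhibitor library. For cholesterol enzymes it was 52.2% in recovery and 3.48% in the 72 h inhibitor library, and it was 24.5% in the 0 h untreated library. For the ATF4-CHOP list it was 52.5% and 54.9%. The 10% of cells with most chaperone UMIs held 17.6% of them in recovery and 16.5% in untreated cells, at means of 25.3 and 14.6 UMIs per cell. Across cells, chaperone and degradation lists had a Spearman correlation of 0.37 in recovery and 0.06 in untreated cells. This is a description over cells of 1 library with sparse counts, in which all measures share the cell's total. It was the largest value among the pairs of lists examined. In recovery, chaperones correlated at 0.14 with cholesterol enzymes and at 0.10 with the ATF4-CHOP list. The lowest pair was at -0.23, mitochondrially encoded with cytosolic ribosomal protein genes. The degradation sum includes HERPUD1, that list's highest ratio, and its part in the correlation was not tested.

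**Figure D3:**
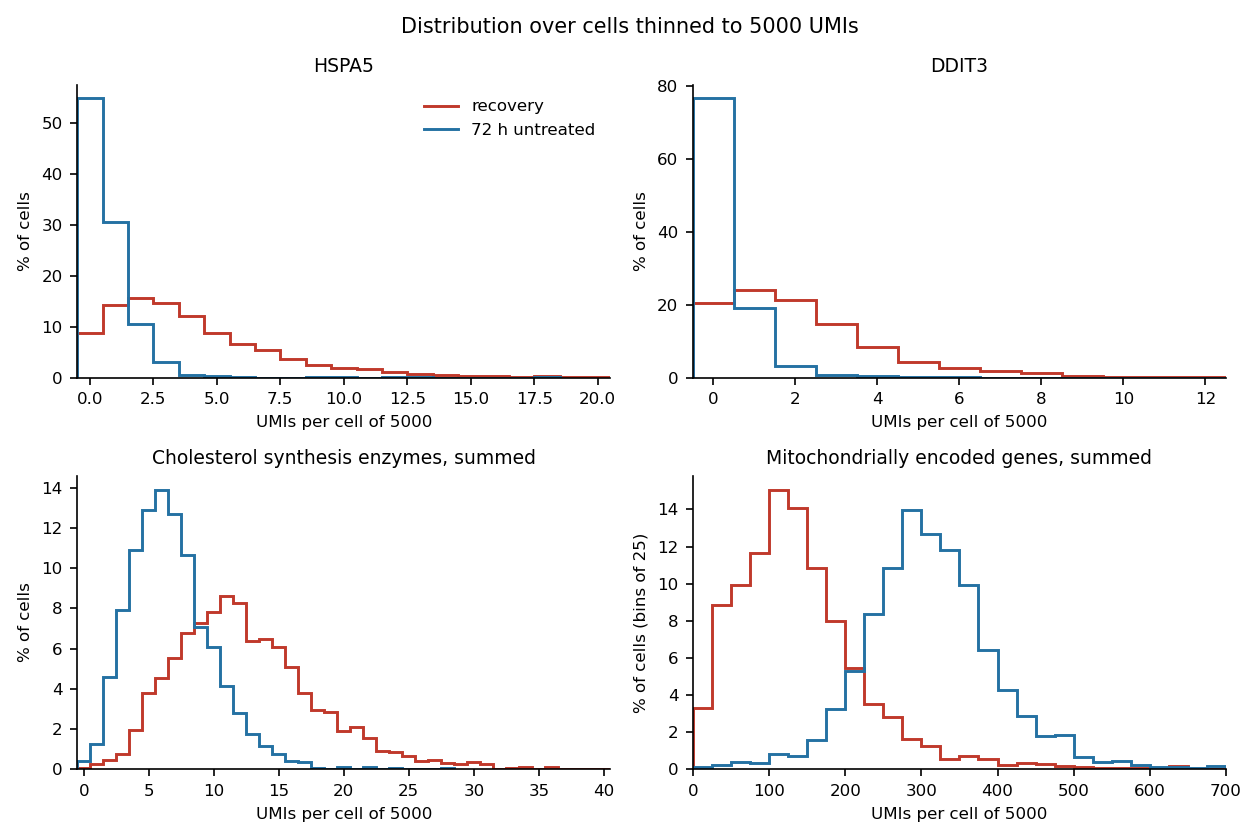
Percent of cells by UMIs per cell thinned to 5000, for HSPA5, DDIT3, the summed cholesterol enzymes and the summed mitochondrially encoded genes (bins of 25), in 3462 recovery and 2885 untreated cells; a few cells lie beyond the right edges. The recovery curve lies to the right of the untreated one in 3 panels and to the left for mitochondrial genes, with medians of 126 and 308 UMIs.

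Messenger RNAs encoded by mitochondrial DNA, which specify core subunits of the respiratory chain, were lower in recovery, but by unequal amounts. Their sum was 27539 CPM in recovery and 35650 CPM after 72 h of inhibitor, against 62013 CPM in 72 h and 56344 CPM in 0 h untreated cells. Of 13 genes 12 were lower and 7 were more than 2-fold lower. MT-CO2, a subunit of cytochrome c oxidase, stood at 3857 against 17522 CPM (4.54-fold lower, 4.53 to 4.56), and MT-CYB, the core of complex III, at 1029 against 4576 CPM (4.45-fold lower, 4.42 to 4.48). The complex I subunit MT-ND4 stood at 7157 against 8234 CPM (1.15-fold lower), and MT-ND4L at 338 against 303 CPM. MT-ND5, also of complex I, stood at 576 against 815 CPM. Differences therefore lay between genes as well as in the sum.

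Of thinned recovery cells, 85.3% lay below the 10th percentile of untreated cells in the summed mitochondrial UMIs. The cell filter used this same measure, and 127 of 3679 recovery barcodes and 36 of 2995 untreated barcodes were over its limit. Without any cell filter the median log2 ratio of the 13 genes was -0.94, and with it -1.09. The nuclear-encoded respiratory chain was close to the median of all genes, with 27 of 36 genes lower and a median of -0.12 that became 0.05 and 0.13 with the 2 other scalings. Of 24 mitochondrial ribosomal proteins, 22 were lower (median -0.32), with medians of -0.15 by median-of-ratios scaling and -0.08 by the trimmed mean of M values, where 15 were lower. In that list MRPL16 was 2.54-fold lower at 35.0 against 89.1 CPM. Of 72 cytosolic ribosomal protein genes, 69 were higher (median 0.34), and together they made up 20.02% of UMIs in recovery against 15.6% in untreated cells. These shares and that of the nuclear RNAs MALAT1 and NEAT1, at 1.49% against 0.976%, differed between the libraries beside these ratios, and their part in the results was not tested. Leaving mitochondrial and ribosomal protein genes out of the totals moved the median of all genes by 0.02.

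**Figure D4:**
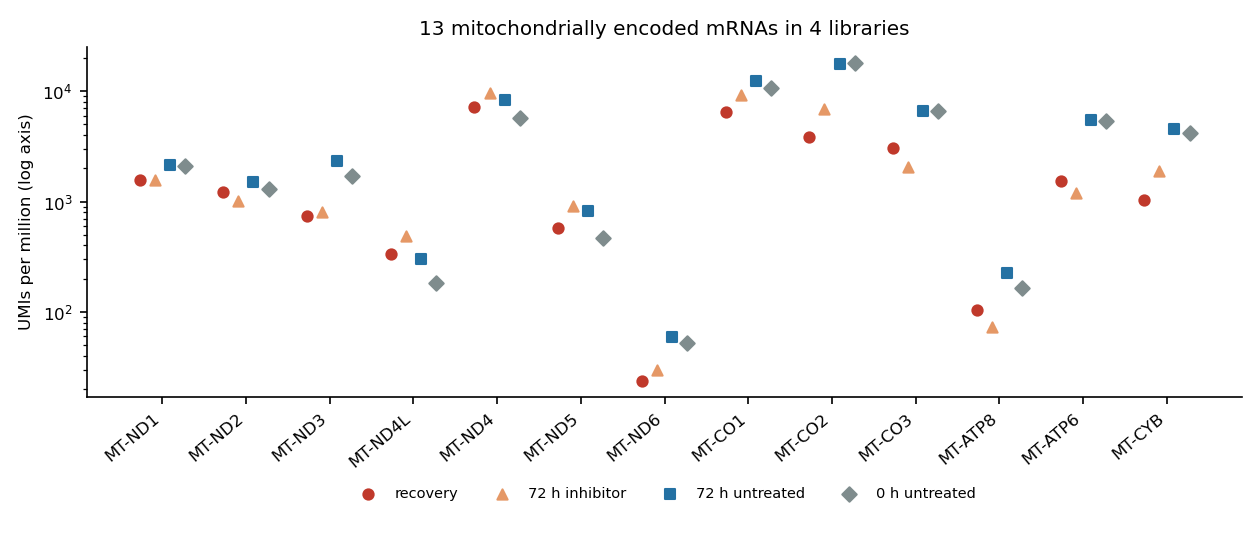
CPM (log axis) of the 13 mitochondrially encoded mRNAs in the recovery, 72 h inhibitor, 72 h untreated and 0 h untreated libraries, 1 point per library. MT-CO2, MT-CYB, MT-ATP6 and MT-ND3 are more than 3-fold lower in recovery than in 72 h untreated cells, whereas MT-ND4 at 7157 against 8234 CPM is close.

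Host transcripts of small nucleolar RNAs, spliced RNAs whose introns carry the guides for ribosomal RNA modification, were higher for 17 of the 18 compared (median 0.95). SNHG12 stood at 139 CPM in recovery and 208 CPM after 72 h of inhibitor, against 29.9 CPM at 72 h untreated (4.64-fold, 4.46 to 4.84). SNHG1 stood at 366 against 85.8 CPM. At matched depth 70.3% of recovery cells and 92.9% of 72 h inhibitor cells lay above the untreated 90th percentile.

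Targets of YAP and TEAD, the transcription factors that respond to cell spreading and tension, were lower in recovery. Of 13 compared out of 18, 12 were lower, 7 of them more than 2-fold, with a median of -1.03. CCN2 (ENSG00000118523, chromosome 6, 131948176 to 131951373, minus strand), a matricellular protein and a standard readout of YAP, stood at 4.36 CPM in recovery and 4.78 CPM after 72 h of inhibitor, against 46.1 and 45.3 CPM in 72 h and 0 h untreated cells, 10.6-fold (9.61 to 11.7) lower in recovery. CCN1, its close relative, stood at 29.5 against 91.7 CPM (3.11-fold lower, 2.98 to 3.24). AMOTL2, a YAP-binding protein, stood at 19.5 CPM in recovery and 112 CPM after 72 h of inhibitor, against 49.0 CPM at 72 h untreated, so it was highest on the drug and lowest in recovery. ANKRD1 was below the minimum at 2.49 against 5.37 CPM.

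The endothelin gene EDN1 stood at 12.6 against 82.7 CPM (6.55-fold lower, 6.18 to 6.96). In the actin cytoskeleton list 7 of 21 genes were higher and 14 lower, near the 38.7% higher among all genes, and the median of -0.23 became 0.02 with the trimmed mean of M values. TPM1, a tropomyosin, and VCL, which encodes vinculin of focal adhesions, were past 2-fold, at 299 against 753 CPM and 71.6 against 171 CPM. Of 5 mesenchymal genes compared out of 20, 1 was higher and 4 lower, with a median of -0.16. The higher one was SNAI1, which represses epithelial genes, at 22.2 against 2.24 CPM (9.92-fold, 8.61 to 11.5), and it reached the minimum only in recovery. CDH1, a gene it can repress, stood at 35.4 against 40.8 CPM.

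EGFR (ENSG00000146648, chromosome 7, 55019021 to 55211628, plus strand), which this line carries in amplified form, stood at 1428 CPM in recovery and 2391 CPM after 72 h of inhibitor, against 2570 and 2477 CPM in 72 h and 0 h untreated cells. Recovery was the lowest of the 4, 1.80-fold (1.79 to 1.81) below 72 h untreated. Of 19 genes of EGFR and MAPK feedback compared out of 25, 16 were lower, with a median of -0.28. The other scalings left 12 lower, with medians of -0.11 by median-of-ratios scaling and -0.03 by the trimmed mean of M values. ERRFI1, a feedback inhibitor of EGFR, stood at 26.1 against 75.2 CPM (2.88-fold lower, 2.76 to 3.02). The ligand HBEGF was higher at 21.6 against 6.93 CPM (3.11-fold, 2.85 to 3.40).

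Several chaperones of the cytosol were higher in recovery. HSPA1A stood at 620 CPM in recovery and 137 CPM after 72 h of inhibitor, against 136 CPM at 72 h untreated (4.56-fold, 4.47 to 4.65), and its near-identical neighbour HSPA1B at 168 against 29.9 CPM. Reads can be split between these 2 genes, so their single values are uncertain. The co-chaperone DNAJB1 stood at 609 against 149 CPM (4.09-fold, 4.01 to 4.16). HSP90AA1 stood at 1063 against 1437 CPM and HSPA8 at 541 against 453 CPM. Of 20 genes compared out of 21, 13 were higher, 5 of them more than 2-fold, with a median of 0.24 that became -0.01 against the 0 h untreated library. Heat shock element letters (GAA, TTC and GAA with 2 bases between neighbours) were found in 3 of 19 windows, CHORDC1, DNAJA1 and HSPA8, and in 0.487% of all promoters. The windows of HSPA1A, HSPA1B, DNAJB1 and DNAJB4, all more than 2-fold higher in recovery, held no match.

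Of 19 NF-kB targets and cytokines compared out of 30, 15 were higher, 7 of them more than 2-fold, with a median of 0.49. NFKBIA, the inhibitor that NF-kB induces as feedback, stood at 157 against 56.1 CPM (2.79-fold, 2.71 to 2.88), and ICAM1, an adhesion molecule, at 96.6 against 35.3 CPM. TNF stood at 15.95 against 1.32 CPM (12.1-fold, 10.1 to 14.6), but its UMIs came from few cells, 3.70% (3.09 to 4.38) of thinned recovery cells against 0.763% (0.478 to 1.15) of untreated cells. The chemokine CCL20 was likewise seen in 1.44% against 0.624%. TNF, CCL20, CXCL1, TNFAIP3 and CD83 reached the minimum only in recovery, which leaves 2 of the 7 with both libraries at the minimum. LIF, a cytokine of the interleukin-6 family, was 10.7-fold (9.22 to 12.5) lower at 1.87 against 20.02 CPM. The transcription factor RNAs FOS and EGR1 stood at 104 against 206 CPM and 46.0 against 85.6 CPM, and JUN at 387 against 219 CPM.

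Genes of the cell cycle differed by phase in their medians. Of the 41 S phase genes compared, 32 were lower (median -0.41, against -0.17 for all genes). More than 2-fold lower were 5, where 11.0% of all genes were. The medians were -0.24 by median-of-ratios scaling and -0.16 by the trimmed mean of M values, where 26 were lower. TYMS, which makes thymidylate, stood at 46.0 CPM in recovery and 53.2 CPM after 72 h of inhibitor, against 115 CPM in 72 h and 240.5 CPM in 0 h untreated cells. Of 54 G2/M genes, 32 were higher (median 0.08), against a median of -0.95 for 72 h of inhibitor over the same untreated library. In recovery 2 of the 54 were more than 2-fold higher, CKS2 among them, where 4.51% of all genes were, and 0 were more than 2-fold lower. With the trimmed mean of M values 43 of the G2/M genes were higher in recovery (median 0.33). CKS2, a subunit of cyclin-dependent kinases, stood at 828 CPM in recovery and 265 CPM after 72 h of inhibitor, against 334 CPM at 72 h untreated. MKI67 stood at 87.9 against 119 CPM. At matched depth 33.9% of recovery cells and 33.2% of untreated cells were low in both lists. In those cells alone 552 genes were more than 2-fold higher and 860 lower. TNF and CCL20 were among the genes that moved most there, to log2 ratios of 4.46 and 3.09.

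Of 18 autophagy genes compared, 14 were higher (median 0.29). ULK1, the kinase that starts autophagy, stood at 52.3 against 11.3 CPM (4.64-fold, 4.35 to 4.97), and MAP1LC3B, which coats the autophagosome, at 349.9 against 162 CPM. Metallothioneins, which bind zinc and copper and whose near-identical genes can split reads, were listed with the zinc exporter SLC30A1. All 5 genes compared out of these 8 were higher, with SLC30A1 at 34.1 against 8.75 CPM (3.89-fold, 3.6 to 4.2). Calprotectin and psoriasin genes were far below the untreated level on the drug and nearer to it in recovery. S100A8 stood at 868 CPM in recovery and 34.8 CPM after 72 h of inhibitor, against 1790 CPM in 72 h and 890 CPM in 0 h untreated cells, and S100A9 at 9220.2 CPM in recovery and 1119 CPM after 72 h of inhibitor, against 11356 CPM in 72 h and 6076 CPM in 0 h untreated cells. In S100A8 the recovery library was 2.06-fold (2.05 to 2.08) below 72 h untreated and close to 0 h untreated. The near-identical squamous antigens SERPINB3 and SERPINB4, whose reads can be split between them, stood at 17.7 against 1.87 CPM and 19.0 against 1.78 CPM.

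Several of the lowest genes span long stretches of the genome. STARD13 stood at 3.99 against 37.5 CPM (9.40-fold lower, 8.48 to 10.4), HECW2, a ubiquitin ligase, at 4.55 against 32.8 CPM, and SEMA3E, a guidance ligand, at 5.67 against 38.9 CPM. When the compared protein-coding genes were ordered by genomic span, the decile with the longest span (median 252 kb) had a median log2 ratio of -0.49, and the decile with the shortest (median 3.78 kb) had -0.14. Between the untreated libraries, 72 h over 0 h, the same deciles were at 0.31 and -0.05. The 2 comparisons share the 72 h untreated library. Whether intronic reads were counted is not given in the sources used here, and the part of span in the single genes was not tested.

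**Figure D5:**
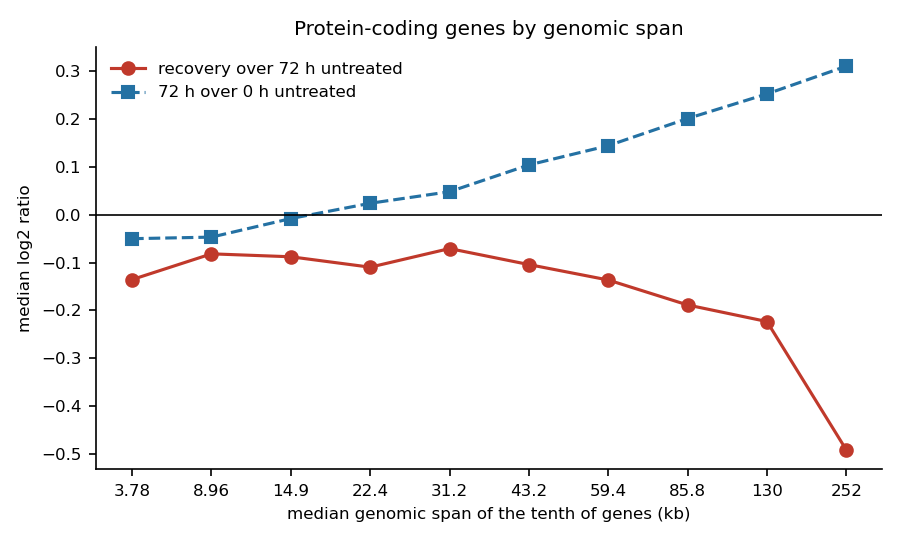
Median log2 ratio of compared protein-coding genes in deciles by genomic span (kb), for recovery over 72 h untreated (circles) and 72 h over 0 h untreated (squares). The longest decile lies at -0.49 for recovery over 72 h untreated and at 0.31 for 72 h over 0 h untreated.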

How the data were processed

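Single cells were captured with a droplet 3' kit after trypsin dissociation, per the labels' protocols. The deposited files hold the authors' UMI counts per gene and cell, made with Cell Ranger 7.1.0 on GRCh38, per the submitters' processing notes. Whether introns were counted is not given in the sources used here. Cells with under 1000 genes or over 20% mitochondrial UMIs were left out. No doublet caller was run, and cells were not clustered. Each library's UMIs were added up over its kept cells and expressed as CPM. Genes of 10 CPM in at least 1 of the compared libraries were compared, and calls were folds over 2 or 1.5. With 1 library per group there is no estimate of the spread between cultures, so exact 95% intervals cover counting error only. Per-cell values used 5000 UMIs per cell, which left out 75 recovery cells and 35 untreated cells at 72 h. Total UMIs were 102172847 in recovery and 93898612 in 72 h untreated cells. The members and gene lists were chosen with earlier results of these data known. The rule for named genes took the 4 largest ratios of each list, the 15 genes at either end of the ranking (minimum 20 CPM, mitochondrial and clone-named genes left out), the 10 furthest past both untreated libraries and a set of central genes of the pathways; any other member is named as one of its list. Some genes that this rule took are not reported here. Promoter windows came from RefSeq (GRCh38.p14) and gene positions from GENCODE 29. The ratio, its counting interval and the fold call were tested on simulated library sums. Tools were pandas 2.3.3 and NumPy 2.4.6, with intervals from SciPy 1.17.1 and plots from matplotlib 3.10.9, under Python 3.11.15. The 14 alternatives covered cell filters, scaling, thinning, weighting, the expression minimum and the untreated library used.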

Additional observations from a re-analysis of the deposited data

How the results depend on the processing

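Plain totals gave 424 genes more than 2-fold higher and 1034 lower, whereas 755 and 605 came from scaling by the trimmed mean of M values. With no expression minimum the counts were 1849 and 5068, and past both untreated libraries 1559 and 2931. With a minimum of 50 CPM they were 209 and 200, and past both untreated libraries 188 and 175. Replacing the 72 h by the 0 h untreated library gave 1093 higher genes. The counts under the other alternatives stayed within 1.5 times. Of 198 named genes, 81 moved by more than 1.5 times against the 0 h untreated library, AKR1C3 furthest by 2.84 on the log2 scale, and 5 did so in cells low in both cell cycle lists. Among the named genes 4 turned direction against the 0 h untreated library, with log2 ratios of 0.81 for CD14 (-1.05 against 72 h untreated), 0.67 for PSMB9 (-0.60), -0.24 for KRT14 (0.87) and -0.079 for PSMC4 (0.64). The cause was not tested. No paired analysis was possible because each group has 1 library, and for the same reason no replicate could be left out. Weakly expressed genes had the least depth behind them.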

Other observations

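Genes of the circadian clock, chosen after their values were seen, differed between recovery and 72 h untreated cells in both directions. NR1D1, a repressor in the clock, stood at 48.6 CPM in recovery and 20.9 CPM after 72 h of inhibitor, against 7.31 CPM at 72 h untreated. The repressors CRY2 and PER1 stood at 29.1 against 7.91 CPM and at 40.7 against 12.7 CPM. PER2 was lower, at 13 against 29.2 CPM, and so was CLOCK, at 16.1 against 34.6 CPM. These libraries were taken at 1 time each.

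SEC61G, a subunit of the ER translocon encoded next to EGFR, was also chosen after its value was seen. It stood at a log2 ratio of 0.77, whereas EGFR stood at -0.85 and its other neighbour LANCL2 at -0.76.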
